A study of Mus musculus with 24 samples.

Results

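Chemokines are small secreted proteins that steer leukocytes, and their receptors are G protein-coupled proteins on the cells that migrate. The genes described here are the mouse chemokine ligands of the CC, CXC, CX3C and XC families, their receptors and the atypical receptors, in tumour-bearing tissue of the peritoneum, the lining of the abdominal cavity. They were taken by name from the deposited table: every gene named Ccl, Cxcl, Ccr or Cxcr with a number and at most 1 trailing letter, with Cx3cl1, Cx3cr1, Xcl1 and Ackr1, Ackr2, Ackr3 and Ackr4. The rule found 60 of 56422 gene names, of which 39 were ligands, 17 receptors and 4 atypical receptors. The rule uses names only and no measured value, but it was chosen with earlier results of these data known.

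A chemokine binds to matrix and forms a gradient, its receptor signals through inhibitory G proteins to the cytoskeleton and to integrins, and the cell moves or arrests. Inflammatory chemokines are induced at sites of damage or infection and draw monocytes, neutrophils, eosinophils and effector T cells, while homeostatic chemokines place cells in lymphoid organs, marrow and epithelia. Atypical receptors bind chemokines without the usual G protein signal and remove or carry them. In the peritoneal cavity, stromal cells, mesothelium, the flat epithelium that covers the cavity, and macrophages are known chemokine sources, and Cxcl13 is the attractant for B cells of the cavity and its fat-associated lymphoid clusters.

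Poly(A) RNA was sequenced from 24 pieces of mouse peritoneum with metastases, in 4 groups of 6. Control samples carry the treatment label none, and the other groups carry the labels propionate, butyrate, or propionate and butyrate, here called the combination. Both acids are short-chain fatty acids made by gut bacteria, and the series title ties the work to mannose, PD-1 blockade and ovarian cancer. The labels give no strain, sex or age of the mice, no dose or duration, no tumour line and no statement on PD-1 antibody in any group. They also do not say that the replicates are separate animals, so the p-values reflect how far these samples spread, and that spread may be technical.

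Values are TPM, an abundance that is divided by transcript length and scaled to the same total in each library, so levels of different genes can be set side by side. Differences are log2 fold changes of TPM + 1 with their standard error (SE), from limma fitted to the 15163 genes that reached 1 TPM in 6 or more libraries, with Benjamini-Hochberg adjustment over all of them and a threshold of 0.05. Group levels are given as the lowest, median and highest TPM of the 6 libraries. Of the 60 members 41 passed this filter (29 ligands, 9 receptors and 3 atypical receptors), 18 were below it, and Ccl26 was at 0 in every library. In bulk tissue, fewer cells of a type and less RNA per cell cannot be told apart.

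The pieces of tissue differed in make-up. Wt1, a defining gene of mesothelium, ranged from 0 to 368 TPM over the 24 libraries and was at 0.65 TPM in control replicate 3, against 131 to 368 TPM in the other controls. Skeletal muscle markers were abundant in every library except combination replicate 5, where they summed to 8.58 TPM. Combination replicate 5 held instead Glycam1, a product of high endothelial venules of lymph nodes, at 4132 TPM (at most 0.51 TPM in any other library) and the B cell gene Ms4a1 at 89.6 TPM (at most 0.86 elsewhere). Pax8, a gene of Müllerian epithelium, did not exceed 0.78 TPM in any library. The epithelial keratins Krt8 and Krt18, however, ranked the controls in the same order as Wt1. They ran from 0.32 and 0.61 TPM in replicate 3 to 292 and 209 TPM in replicate 2. Combination replicate 5 held 123 and 191 TPM of them with Wt1 at 0. Whether the Wt1 levels reflect mesothelium or tumour cells was not tested. Differences that move by over 1.5 times or turn without combination replicate 5 or control replicate 3 are therefore also given without that library for the genes described at length.

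Together the 60 genes made up 0.0521 to 0.1233% of the TPM of a control library, with a summed level between 520.9 and 1233 TPM and a median of 1003 TPM. The sum was 443.9 to 1611 TPM in propionate (median 600.6), 456.9 to 1115 TPM in butyrate (median 917.5) and 1021 to 3004 TPM in the combination (median 1496). All groups overlapped in this sum. A few abundant CC ligands carried it: Ccl8, Ccl6 and Ccl9 held 13.2 to 62.8% of the summed level of a library, and 1 of Ccl8 and Ccl6 was the most abundant member in all but 2 libraries. Those 2 were butyrate replicate 5, where Cxcl12 led, and combination replicate 5, where Ccl21a led at 999.99 TPM. Between 24 and 49 of the 60 genes reached 1 TPM in a library.

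**Figure D1:**
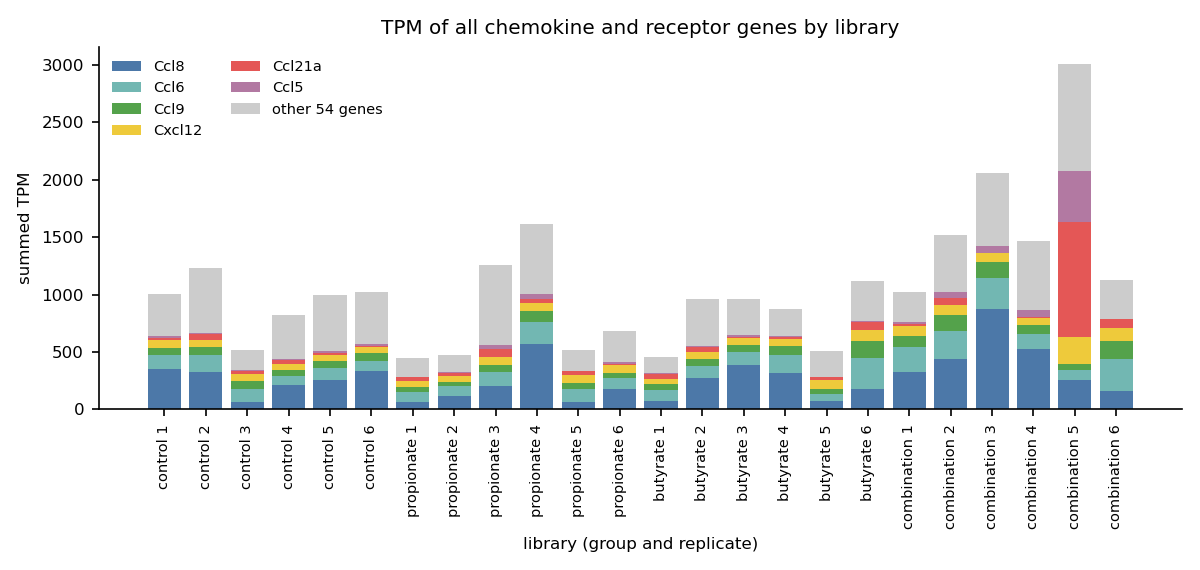
Summed TPM of the 60 chemokine and receptor genes in each of the 24 libraries (x axis, group and replicate; y axis, TPM). Coloured segments are the 6 ligands named in the legend and grey is the other 54 genes. Combination replicate 5 reaches 3004 TPM, with Ccl21a as its largest named segment, and the smallest sum is 443.9 TPM in propionate replicate 1.

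No member passed the adjusted threshold in any of the 7 comparisons of the limma fit, and neither did any of the 15163 genes (0.0% called in each). Of the 41 tested members 31 had a higher mean in the combination than in control, with a median log2 difference of 0.51, where 34.1% of all genes were higher and their median was -0.12. At an unadjusted p below 0.05 stood 10 members higher and 1 lower, against 6.2% and 4.1% of all genes. Without combination replicate 5 these became 9 higher and 1 lower, with 30 of 41 above 0 and a median of 0.41. In propionate 13 members were above control (20.7% of all genes), with a median of -0.20 (all genes -0.30) and none past an unadjusted p of 0.05, where 9.13% of all genes were lower and 0.435% higher. In butyrate 10 were above control (21.2% of all genes), with a median of -0.38 (all genes -0.38), and 2, Cx3cl1 and Ccl27a, were lower at an unadjusted p below 0.05, against 35.1% of all genes. With either acid alone the median of the members thus lay at that of all genes or nearer to 0, and in butyrate a smaller share of members than of all genes was lower at that level. A fit that weights each library by its estimated spread, with combination replicate 5 among the least weighted, called 26 members in propionate, 19 in butyrate and 14 in the combination, among 11434, 10256 and 5786 genes.

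**Figure D2:**
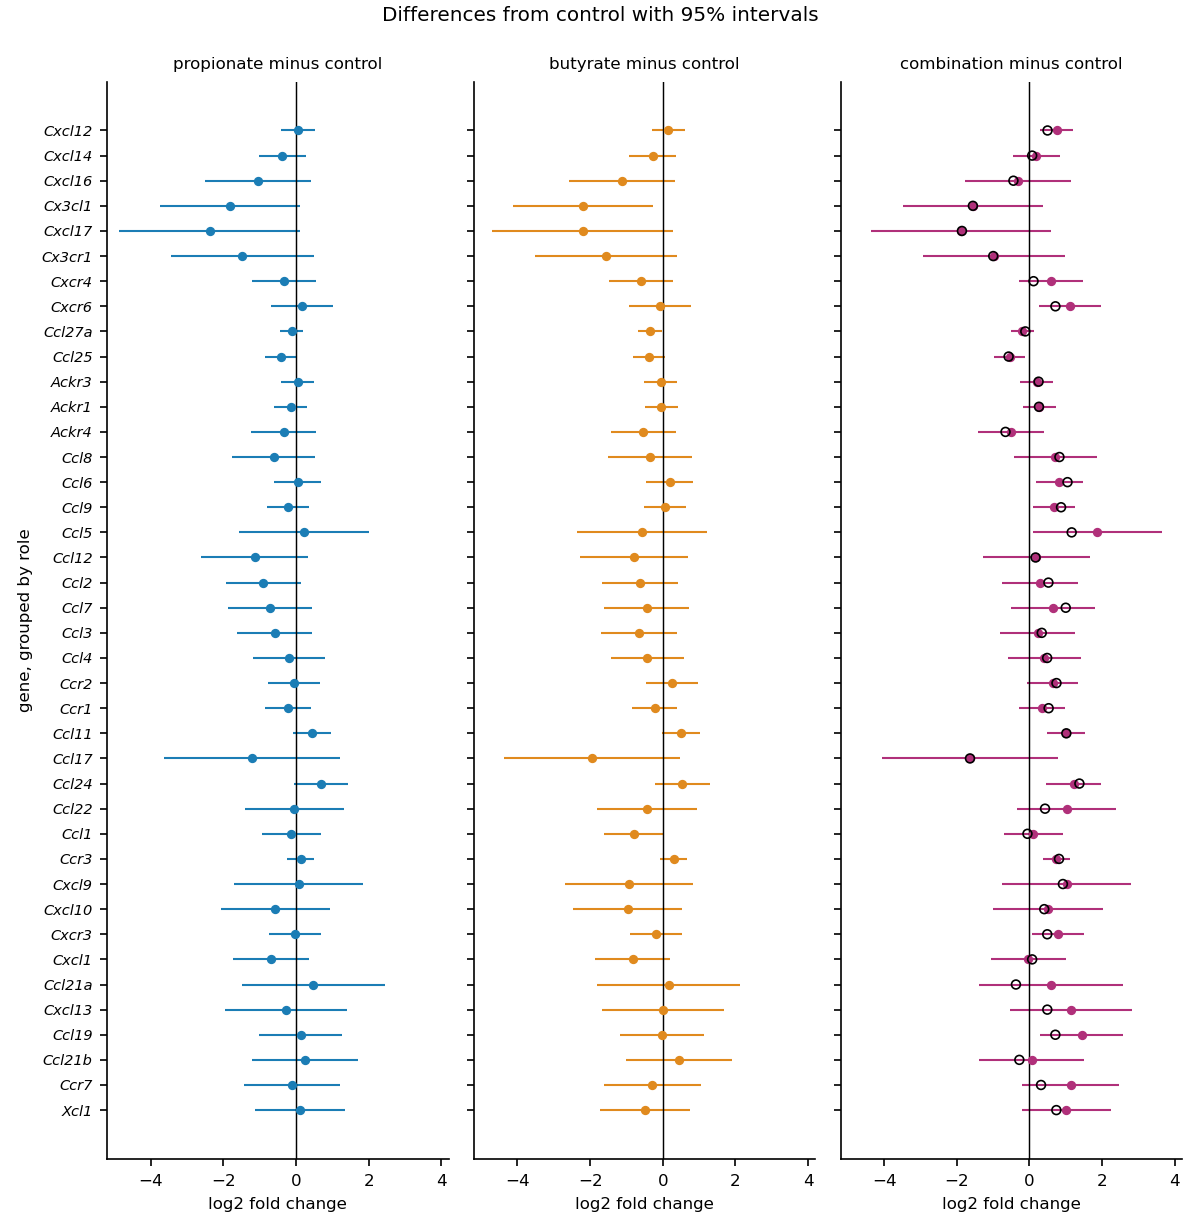
Log2 fold change (x axis) of 40 of the 41 tested genes (y axis, ordered by role) in propionate, butyrate and the combination, each minus control. Filled points are estimates with 95% intervals, and open circles are the combination estimates without combination replicate 5. Ccl11, Ccl24 and Ccr3 lie right of 0 in the combination panel with and without that library, while Cxcl12, Cxcr6 and Ccl19 move towards 0 without it.

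The eotaxins and their receptor led the comparison of the combination with control. Ccl11 and Ccl24 are eosinophil-attracting ligands, made by stromal cells and by macrophages respectively, and Ccr3 is the receptor they share. Ccl11 was at 11.3, 17.5 and 26.4 TPM in control, 16.7, 24.8 and 34.5 in propionate, 15.5, 24.6 and 42.4 in butyrate and 28.1, 34.8 and 54.6 in the combination. Every combination library was above every control library, and the single-acid groups overlapped both. The log2 difference from control was 1.01 ± 0.25 (SE; 95% interval 0.49 to 1.53; unadjusted p = 0.000573, limma adjusted p = 0.202), and the combination exceeded control in 36 of 36 pairs of libraries. It was 0.44 ± 0.25 in propionate and 0.50 ± 0.25 in butyrate, which also did not pass.

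Ccl24 was at 4.15, 5.45 and 8.9 TPM in control, 7.31, 9.43 and 13.1 in propionate, 2, 7.49 and 28.8 in butyrate and 8.08, 14.6 and 21.7 in the combination. Combination replicate 5 was the lowest library of its group at 8.08 TPM, just under the highest control, and the other combination libraries were all above control. The log2 difference was 1.22 ± 0.36 (limma adjusted p = 0.259) and 1.38 without that library. Ccr3 was low throughout, at 0.31, 0.63 and 0.79 TPM in control, 0.31, 0.8 and 1.12 in propionate, 0.52, 0.98 and 1.37 in butyrate and 0.97, 1.27 and 2.92 in the combination. The combination and control libraries did not overlap (log2 difference 0.73 ± 0.18, limma adjusted p = 0.202), but 5 of the 9 libraries that brought Ccr3 past the filter were combination libraries and none was a control. Ccl11 and Ccr3 were the members whose combination and control ranges did not overlap, against 0.633% of all genes higher without overlap. Without combination replicate 5 they were joined by Ccl24 and Ccl9, against 0.785% of all genes.

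Control replicate 3, the control library with little Wt1, was the highest control for Ccl11, Ccl24 and Ccr3, at 26.4, 8.9 and 0.79 TPM. The combination libraries with the most Wt1, replicates 3 and 4 at 216 and 203 TPM, held the lowest Ccl11 of their group, 28.9 and 28.1 TPM, still above every control. Ccl24 and Ccr3 did not follow that order. Replicate 3 held 21.7 and 2.82 TPM of them and replicate 4 held 14.8 and 1.19 TPM. Replicate 5, with Wt1 at 0, was the lowest of the group for both, at 8.08 and 0.97 TPM. When the scores of the skeletal muscle and mesothelium marker lists (mean log2(TPM + 1)) entered the fit as covariates, Ccr3 passed at 0.82 ± 0.19 (limma adjusted p = 0.0436), and Ccl11 did not at 0.89 ± 0.27 (adjusted p = 0.107). Ccr3 entered the fit mainly through combination libraries. The muscle score was 0.87 in combination replicate 5 and at least 9.37 in every other library, so this covariate largely marks that library. No covariate fit without it was made. All 7 genes of the eosinophil marker list were found in the table and summed to 6.86 to 28.4 TPM in control, 19.6 to 51.8 in propionate, 13.8 to 68.2 in butyrate and 19.1 to 92.6 in the combination. Ear2, which monocytes also express, made up most of that sum, while Epx, the eosinophil peroxidase, was at 0 in all libraries but 1 (0.02 TPM in propionate replicate 4) and Siglecf did not exceed 2.42 TPM. The part of these marker levels in the Ccr3 and eotaxin differences was not tested.

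The upstream sequence of Ccr3 is shown because this receptor is the member with the smallest p of that comparison. It is the 250 bases before the RefSeq start site at chr9:124021721-124021970 (plus strand) of build GRCm38.p6, 5′ to 3′, with a match to the NF-kB consensus in capitals, 179 bases upstream. Windows of 250 bases were found for 45 of the 60 members in the RefSeq promoter table, and 11 of those members held that consensus on either strand, against 8.23% of all 27025 genes in the table.
Ccr3: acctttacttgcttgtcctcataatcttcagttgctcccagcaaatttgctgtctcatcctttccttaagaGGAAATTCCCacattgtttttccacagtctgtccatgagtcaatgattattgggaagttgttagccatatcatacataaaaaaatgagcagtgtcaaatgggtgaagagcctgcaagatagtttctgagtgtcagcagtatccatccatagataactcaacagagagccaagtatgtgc

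**Figure D3:**
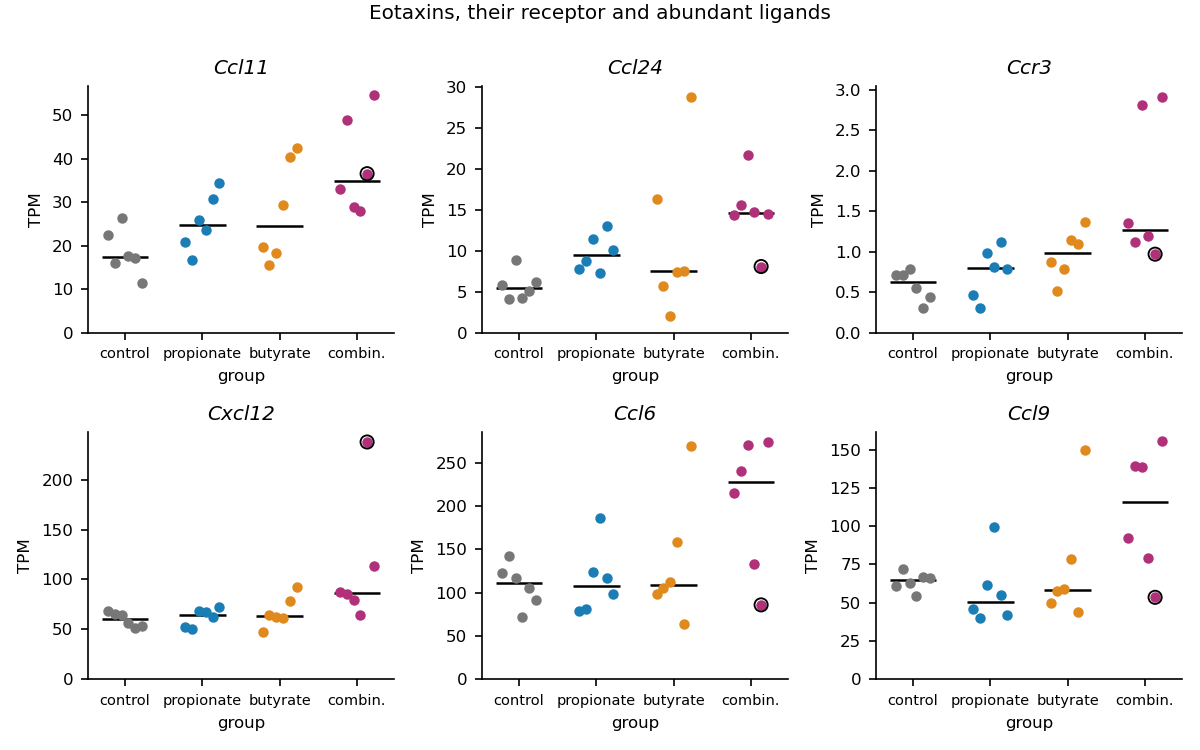
TPM (y axis of each panel, linear) of Ccl11, Ccl24, Ccr3, Cxcl12, Ccl6 and Ccl9 in the 4 groups (x axis; combin. is the combination). Each point is 1 library, the line is the group median, and the circled point is combination replicate 5. For Ccl11 every combination library lies above the highest control at 26.45 TPM, whereas for Cxcl12 the circled library stands alone at 238 TPM.

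Ccl17 and Ccl22 are the ligands of Ccr4, a receptor of T helper and regulatory T cells, and Ccl1 is a ligand of Ccr8. Ccl17 was at 0.24, 28.5 and 41.3 TPM in control, 0.23, 7.31 and 57 in propionate, 0.2, 3.93 and 32.5 in butyrate and 0, 3.63 and 50.2 in the combination. The lowest library of every group was at or below 0.24 TPM and the highest at 32.5 TPM or more, and control replicate 3 was the lowest control. The log2 differences from control were -1.21 ± 1.17, -1.96 ± 1.17 and -1.63 ± 1.17 in propionate, butyrate and the combination, and that in propionate was -1.98 without control replicate 3. Ccl22 was at 0.15, 2.08 and 3.65 TPM in control, 0.14, 1.42 and 7.41 in propionate, 0.16, 0.855 and 2.51 in butyrate and 0.28, 4.66 and 43.2 in the combination, and its highest value was combination replicate 5. Ccl1 was at 0 in 5 of 6 butyrate libraries and at 0.21 TPM in the sixth, below all controls (0.28 to 2.03 TPM). Of all genes, 1.82% were lower in butyrate than in control without overlap. The log2 difference of Ccl1 was -0.79 ± 0.39 (limma adjusted p = 0.146). Only 7 libraries reached 1 TPM of Ccl1, 2 of them controls and none butyrate, so the gap between these groups lay below the level of the filter. The receptors Ccr4 and Ccr8 stayed below the filter, at most 2.42 and 2.07 TPM, both in combination replicate 5.

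Among the monocyte-attracting and inflammatory CC genes, all 12 members were tested and 11 had a higher mean in the combination than in control (median log2 difference 0.52; 34.1% of all genes), while 2 of 12 did in propionate and 3 of 12 in butyrate (20.7% and 21.2% of all genes). None passed. Higher at an unadjusted p below 0.05 were Ccl6, Ccl9 and Ccl5, against 6.2% of all genes. Ccl6 and Ccl9, myeloid ligands of Ccr1, were among the most abundant members in all groups.

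Ccl6 was at 71.7, 112 and 142 TPM in control, 79.1, 108 and 187 in propionate, 64, 109 and 270.1 in butyrate and 85.8, 228 and 275 in the combination. Combination replicates 1, 2, 3 and 6 lay between 216 and 275 TPM, above all controls, and replicates 4 and 5 lay within the control range. The log2 difference was 0.82 ± 0.31 (limma adjusted p = 0.361) and 1.05 without replicate 5. Ccl9 was at 54.5, 64.6 and 71.9 TPM in control, 39.7, 50.4 and 99.7 in propionate, 43.7, 58.4 and 149.96 in butyrate and 53.5, 116 and 155 in the combination. Its controls were the most even of all groups, and combination replicate 5, at 53.5 TPM, was the one combination library below them. The log2 difference was 0.68 ± 0.28 (limma adjusted p = 0.396), and butyrate replicate 6 reached a similar level of 149.96 TPM.

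Ccl8, in mice a ligand of Ccr8, was the most abundant member on average. It was at 64.6, 291 and 355 TPM in control, 61.5, 148 and 570.2 in propionate, 70.8, 227 and 389 in butyrate and 162, 384 and 873 in the combination. The groups overlapped widely, and the log2 differences from control were -0.62 ± 0.55, -0.35 ± 0.55 and 0.72 ± 0.55. Without control replicate 3 they were -0.98, -0.71 and 0.36, and with the tissue covariates the first turned to 0.09 and the second to 0.48. Control replicate 3, propionate replicates 1 and 5 and butyrate replicates 1 and 5, the lowest libraries at 61.5 to 73.2 TPM, held at most 1.73 TPM of Wt1. Combination replicates 5 and 6 had as little Wt1, 0 and 1.76 TPM, but held 256 and 162 TPM of Ccl8.

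Ccl2, Ccl7 and Ccl12 are ligands of Ccr2, the receptor that brings monocytes out of the marrow and into tissue. Ccl2 was at 6.29, 13.4 and 22.2 TPM in control, 2.81, 5.58 and 21.3 in propionate, 2.7, 8.12 and 26.2 in butyrate and 6.79, 17.1 and 39.9 in the combination. Ccl7 was at 2.99, 9.98 and 19.1 TPM in control, 1.83, 6.22 and 14.8 in propionate, 1.42, 9.49 and 14.5 in butyrate and 4.02, 15 and 42.3 in the combination. Combination replicate 2 was the highest library for both, at 39.9 and 42.3 TPM, and the groups overlapped. Ccl12 was at 2.39, 19.4 and 35.4 TPM in control, 1.25, 8.29 and 34 in propionate, 2.4, 11 and 24.8 in butyrate and 4.82, 21.6 and 34.5 in the combination. In propionate the log2 differences from control were -0.90 ± 0.50 for Ccl2, -0.72 ± 0.56 for Ccl7 and -1.14 ± 0.71 for Ccl12. In the combination they were 0.29 ± 0.50, 0.65 ± 0.56 and 0.19 ± 0.71, none past the threshold. Combination replicate 5 was the lowest of its group for Ccl2 and Ccl7, and without it these differences were 0.52 and 1.00. Without control replicate 3 the 3 differences were 0.10, 0.37 and -0.29. Ccr2 itself was at 13.4, 16.9 and 24.5 TPM in control, 6, 15.9 and 37.2 in propionate, 12.6, 24.8 and 30.5 in butyrate and 19.4, 26.7 and 55 in the combination, a log2 difference of 0.64 ± 0.34 in the combination (limma adjusted p = 0.51).

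Ccl5, made by T cells and natural killer cells and bound by Ccr1 among other receptors, varied more than any other member of this group. It was at 2.44, 13.8 and 14.9 TPM in control, 3.39, 9.79 and 43.2 in propionate, 2.26, 7.33 and 16.2 in butyrate and 1.26, 52.5 and 446 in the combination. Combination replicate 5 held 446 TPM, replicates 2, 3 and 4 held 51.6 to 57 TPM, and replicate 6 held 1.26 TPM, the lowest of all 24 libraries. The log2 difference from control was 1.87 ± 0.86 (limma adjusted p = 0.47) with all 6 libraries and 1.16 without replicate 5. The 11 T cell markers summed to 7.81 to 22.01 TPM in control, 10.1 to 50.7 in propionate, 8.1 to 19.4 in butyrate and, without replicate 5, 10.3 to 59.1 in the combination (803 TPM in replicate 5). Their part in the Ccl5 difference was not tested.

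The inflammatory ligands Ccl3 and Ccl4 were low, with highest values of 8.73 and 5.4 TPM in the combination and 3.01 and 2.07 TPM in control. Ccr1 was at 2.79, 4.85 and 6.79 TPM in control, 2.26, 3.11 and 7.18 in propionate, 1.57, 3.83 and 7.51 in butyrate and 2.77, 6.49 and 11.7 in the combination. It separated no group from control, with a log2 difference in the combination of 0.34 ± 0.30 (0.53 without replicate 5). The 8 macrophage markers summed to 392 to 1231 TPM in control, 304 to 1178 in propionate, 289 to 867 in butyrate and 648 to 1506 in the combination.

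The interferon-induced group comprises Cxcl9 and Cxcl10, which draw effector T cells through Cxcr3, their receptor Cxcr3, and Cxcl11, which stayed at or below 0.28 TPM. Cxcl9 was at 0.98, 11.1 and 19.3 TPM in control, 2.22, 8.79 and 52.6 in propionate, 0.78, 5.03 and 13.1 in butyrate and 0.93, 31.3 and 59.5 in the combination. Cxcl10 was at 1.75, 14.5 and 29.9 TPM in control, 1.43, 7.34 and 37.9 in propionate, 0.86, 8.37 and 13.3 in butyrate and 4, 23.1 and 56.9 in the combination. For both, combination replicates 2, 3, 4 and 5 lay above the control median while replicates 1 and 6 lay below it, so the combination overlapped the control range. The log2 differences from control were 1.02 ± 0.86 and 0.51 ± 0.73 in the combination, -0.93 ± 0.86 and -0.97 ± 0.73 in butyrate and 0.07 ± 0.86 and -0.57 ± 0.73 in propionate, none past the threshold. With the tissue covariates the signs in butyrate turned, to 0.40 for Cxcl9 and 0.25 for Cxcl10, and in propionate the values were 1.17 and 0.44. Without control replicate 3 the combination differences were 0.56 and 0.06 and those in propionate -0.39 and -1.02.

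Cxcr3 was at 0.85, 1.4 and 1.96 TPM in control, 0.67, 0.825 and 3.35 in propionate, 0.43, 1.25 and 1.82 in butyrate and 0.63, 3.23 and 10.1 in the combination, a log2 difference of 0.78 ± 0.34 in the combination (unadjusted p = 0.0341, limma adjusted p = 0.451) that came to 0.49 without replicate 5. Xcl1, the lymphotactin made by T and natural killer cells, was at 0.23, 2.37 and 2.8 TPM in control, 0, 1.95 and 6.92 in propionate, 0.17, 0.765 and 1.54 in butyrate and 0.22, 5.71 and 13.8 in the combination. Against butyrate alone, the combination was higher by 1.505 ± 0.60 for Xcl1, 1.95 ± 0.86 for Cxcl9 and 0.96 ± 0.34 for Cxcr3 on the log2 scale (limma adjusted p = 0.317 for each).

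The upstream windows of both ligands are shown because they were high in the same libraries. Capitals mark matches to the NF-kB consensus and to the interferon-stimulated response element, searched as TTTC, then 2 bases of any kind, then TTTC, on both strands. Cxcl10 (window chr5:92348890-92349139 (minus strand)) holds the response element as GAAAGTGAAA 213 bases upstream of its start and NF-kB matches 159 and 104 bases upstream, the latter overlapping 2 more matches. In Cxcl9 (window chr5:92328080-92328329 (minus strand)) neither set of letters occurs. The response element was found in 3 of the 45 members, Ccl19, Cxcl10 and Cxcl14, and in 3.46% of all genes.
Cxcl9: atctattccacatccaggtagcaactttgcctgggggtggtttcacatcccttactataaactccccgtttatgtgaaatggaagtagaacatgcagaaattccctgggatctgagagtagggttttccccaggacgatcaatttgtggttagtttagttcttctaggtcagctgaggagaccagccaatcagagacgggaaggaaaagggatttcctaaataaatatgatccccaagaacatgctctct
Cxcl10: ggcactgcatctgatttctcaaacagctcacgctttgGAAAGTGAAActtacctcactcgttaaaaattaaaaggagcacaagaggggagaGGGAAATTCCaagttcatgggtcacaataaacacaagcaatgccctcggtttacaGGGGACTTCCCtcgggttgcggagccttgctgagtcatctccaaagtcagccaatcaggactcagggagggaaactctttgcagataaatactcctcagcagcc

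The neutrophil-attracting ligands were scarce. Cxcl1 was the single member of this group past the filter, at 0.27, 2.71 and 4.93 TPM in control, 0.14, 0.475 and 4.81 in propionate, 0.07, 1.1 and 2.16 in butyrate and 0.08, 2.94 and 5.61 in the combination. Its combination values overlapped those of all groups (log2 difference -0.03 ± 0.50), and the log2 differences from control were -0.69 ± 0.50 in propionate and -0.83 ± 0.50 in butyrate. Cxcl2, Cxcl3 and Cxcl5 stayed below 2 TPM in every library but 1, combination replicate 2, which held 11, 3.24 and 6.71 TPM. Their receptor Cxcr2 was at 2.27 TPM in that library and at 7.89 TPM in combination replicate 5, and at most 0.83 TPM elsewhere. Both libraries also held the most of the neutrophil genes S100a8 and S100a9, 39.9 and 66.0 TPM in replicate 2 and 40.8 and 61.4 TPM in replicate 5, although Ly6g, a defining neutrophil gene, was at 0 in both. The 8 neutrophil markers summed to 8.4 to 30.0 TPM in control, 13.4 to 27.1 in propionate, 11.4 to 34.4 in butyrate and 32.5 to 133 in the combination, and their part in these ligand levels was not tested. Cxcr1 did not exceed 0.13 TPM.

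The Cxcl1, Cxcl2 and Cxcl3 windows are printed because these neighbouring genes share a stretch of letters. They lie at chr5:90890995-90891244 (plus strand), chr5:90903649-90903898 (plus strand) and chr5:90785851-90786100 (plus strand). Each holds GGGAATTTCC, a match to the NF-kB consensus, starting 71, 97 and 73 bases upstream, with a second match overlapping it on the other strand, so the capitals cover both.
Cxcl1: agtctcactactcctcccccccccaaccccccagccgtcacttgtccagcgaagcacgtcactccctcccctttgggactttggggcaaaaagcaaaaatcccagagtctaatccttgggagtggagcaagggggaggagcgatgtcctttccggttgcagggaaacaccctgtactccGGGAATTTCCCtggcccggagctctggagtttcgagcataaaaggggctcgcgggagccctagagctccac
Cxcl2: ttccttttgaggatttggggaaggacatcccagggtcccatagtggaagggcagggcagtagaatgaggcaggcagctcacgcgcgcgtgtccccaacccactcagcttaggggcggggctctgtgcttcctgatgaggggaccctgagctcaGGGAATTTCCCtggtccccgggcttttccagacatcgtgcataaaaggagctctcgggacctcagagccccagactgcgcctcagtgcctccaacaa
Cxcl3: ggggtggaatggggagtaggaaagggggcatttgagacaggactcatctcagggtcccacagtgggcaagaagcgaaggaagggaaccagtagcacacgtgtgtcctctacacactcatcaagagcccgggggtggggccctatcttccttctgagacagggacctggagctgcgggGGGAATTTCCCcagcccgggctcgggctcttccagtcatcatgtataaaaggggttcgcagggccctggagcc

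Genes that organise lymphoid tissue were dominated by combination replicate 5. Ccl19 and the Ccl21 genes guide T cells and dendritic cells through Ccr7, and Cxcl13 guides B cells through Cxcr5. In that library Ccl21a reached 999.99 TPM, Ccl19 160.1, Cxcl13 118.1, Ccr7 67.6 and Cxcr5 35.6 TPM. In the other 23 libraries the highest values were 83.9, 9.72, 25.3, 3.72 and 0.92 TPM. The library was the highest of all 24 for 20 members, 11 of them tested and 9 below the filter, among them Ccr6 at 27.8 TPM and Ccr9 at 6.52 TPM. The 9 B cell markers summed to 1091 TPM there and to between 1.71 and 15.0 TPM elsewhere.

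Outside that library, differences were small. Ccl19 was at 2.71, 3.73 and 4.79 TPM in control, 2.01, 4.73 and 6.55 in propionate, 2.02, 3.04 and 6.52 in butyrate and 3.72, 7 and 9.72 in the remaining 5 combination libraries, of which all but replicate 6 lay above every control. Its log2 difference in the combination was 1.44 ± 0.55 (limma adjusted p = 0.364) with replicate 5 and 0.71 without it. Cxcl13 was at 1.21, 5.5 and 6.75 TPM in control and 0.86, 6.14 and 18.9 in those 5 libraries, and butyrate replicate 5 held 25.3 TPM. Ccr7 was at 0.21, 0.985 and 1.36 TPM in control and 0.1, 1.11 and 3.72 in the same 5 libraries. The log2 differences of Cxcl13 and Ccr7 in the combination came to 0.49 and 0.32 without replicate 5, from 1.15 and 1.13 with it.

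Ccl21a was at 12.5, 23 and 50.3 TPM in control, 12.2, 35.4 and 68.4 in propionate, 5.41, 29.5 and 72.1 in butyrate and 0.87, 40.3 and 1000.0 in the combination. Its log2 difference in the combination was 0.59 ± 0.95 with replicate 5 and -0.37 without it, so 1 library set the sign. Reads of Ccl21a cannot be assigned with certainty, since its transcript differs from that of Ccl21b at 2 of 402 bases in an older annotation (GENCODE M21). Ccl21d was listed above 0.02 TPM in only 2 libraries, propionate replicate 4 (21.4 TPM) and combination replicate 6 (24.6 TPM), in which Ccl21b was at 0 and 2.4 TPM. The sum of the 3 genes was 13.4 to 61.6 TPM in control, 0.87 to 111 TPM in all libraries but combination replicate 5, and 1018 TPM in that library.

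The 249 bases upstream of Ccl21a (chr4:42773992-42774240, minus strand) and Ccl21d (chr4:41903363-41903611, plus strand) are shown to make the likeness of these copies visible. They differ by a single substitution, T141C, counted from the 5′ end with the Ccl21a base first, and that base is in capitals.
Ccl21a: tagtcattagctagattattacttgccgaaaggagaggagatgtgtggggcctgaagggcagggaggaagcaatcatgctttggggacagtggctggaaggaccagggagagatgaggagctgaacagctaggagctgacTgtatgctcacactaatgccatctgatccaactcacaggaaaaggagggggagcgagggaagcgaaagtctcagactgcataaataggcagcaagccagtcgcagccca
Ccl21d: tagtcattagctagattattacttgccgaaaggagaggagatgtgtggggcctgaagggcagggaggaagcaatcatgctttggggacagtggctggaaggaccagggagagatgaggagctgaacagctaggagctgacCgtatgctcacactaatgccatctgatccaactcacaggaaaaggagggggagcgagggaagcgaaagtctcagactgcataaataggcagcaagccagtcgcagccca

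**Figure D4:**
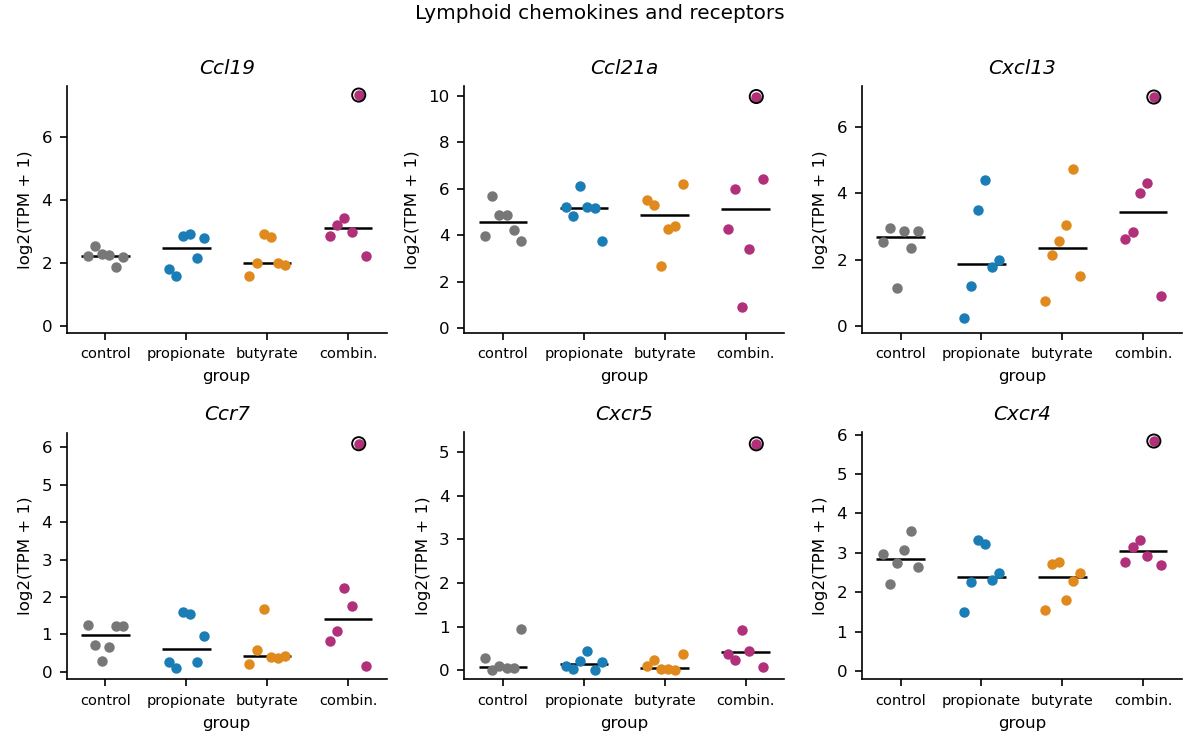
Log2(TPM + 1) (y axis) of the lymphoid genes Ccl19, Ccl21a, Cxcl13, Ccr7 and Cxcr5 and of Cxcr4 in the 4 groups (x axis; combin. is the combination). Points are libraries, lines are group medians and the circled point is combination replicate 5. That library is the highest of 24 in every panel, and the remaining combination libraries overlap the control libraries.

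Among stromal and homeostatic genes, Cxcl12, which retains Cxcr4-bearing cells in tissue and marrow, was steady in control. It was at 51.3, 60.3 and 68 TPM in control, 50.0, 64.8 and 72.5 in propionate, 47.5, 63.6 and 92 in butyrate and 64.6, 86.1 and 238 in the combination. Combination replicate 5 held 2.1 times the level of the next library, combination replicate 6, and all but 1 of the other combination libraries lay above every control. The log2 difference was 0.75 ± 0.22 (limma adjusted p = 0.259) and 0.50 without replicate 5. Its receptor Cxcr4 was at 3.6, 6.24 and 10.7 TPM in control and 5.45, 6.62 and 9.04 in the combination without replicate 5, where the log2 difference was 0.11. Cxcl14, an abundant ligand of connective tissue and epithelium, was at 23.8, 34.4 and 54.2 TPM in control, 17.2, 23 and 44.2 in propionate, 9.61, 33.4 and 41.4 in butyrate and 29.6, 39.2 and 58.1 in the combination and did not separate the groups.

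Cxcl16 is a membrane-bound ligand and Cxcr6, on T and natural killer T cells, its receptor. Cxcr6 was at 0.22, 0.99 and 1.96 TPM in control, 0.32, 1.16 and 2.86 in propionate, 0.38, 0.895 and 1.41 in butyrate and 0.9, 3.02 and 15.9 in the combination. The log2 difference in the combination was 1.11 ± 0.41 (limma adjusted p = 0.355) and 0.72 without replicate 5. With the tissue covariates it passed at 1.01 ± 0.20 (limma adjusted p = 0.0379). The muscle covariate sets replicate 5 apart from all other libraries, and replicate 5 also held the most Cxcr6, 15.9 TPM (at most 5.11 elsewhere). No covariate fit left that library out. Cxcl16 was at 4.05, 31.9 and 36.5 TPM in control, 3.61, 8.2 and 47.4 in propionate, 1.66, 9.55 and 36.9 in butyrate and 7.05, 22.1 and 42.5 in the combination, with log2 differences from control of -1.03 ± 0.70, -1.12 ± 0.70 and -0.31 ± 0.70. With the tissue covariates the last 2 turned to 0.10 and 0.46, and without control replicate 3 that in the combination was -0.76.

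Cx3cl1, the membrane-tethered fractalkine, its receptor Cx3cr1 on monocytes and macrophages, and Cxcl17, a ligand of mucosal epithelia, were among the members furthest below control in both single-acid groups. Cx3cl1 was at 2.31, 41.2 and 57.1 TPM in control, 0.92, 3.5 and 64.5 in propionate, 1.15, 4.25 and 20.8 in butyrate and 1.46, 8.05 and 30.6 in the combination. The log2 differences were -1.81 ± 0.93 in propionate, -2.19 ± 0.93 in butyrate (unadjusted p = 0.0279, limma adjusted p = 0.119) and -1.56 ± 0.93 in the combination. Cxcl17 was at 0, 32.3 and 65.8 TPM in control, 0, 0.335 and 54.8 in propionate, 0, 2.64 and 36.1 in butyrate and 0.11, 3.08 and 35 in the combination, with log2 differences of -2.38 ± 1.198, -2.21 ± 1.198 and -1.89 ± 1.198. Cx3cr1 was at 0.6, 20.3 and 36.5 TPM in control, 0.44, 2.46 and 33.8 in propionate, 0.31, 3.54 and 19.2 in butyrate and 1.03, 5.72 and 27.4 in the combination, with log2 differences of -1.47 ± 0.95, -1.56 ± 0.95 and -0.98 ± 0.95.

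In these genes every group held low and high libraries, but not in equal number. Among the controls only replicate 3 was low, and the others held at least 19.4 TPM of Cx3cl1 and 15.5 TPM of Cxcl17. In butyrate Cx3cl1 reached at most 20.8 TPM. Control replicate 3 held 2.31 TPM of Cx3cl1 and no Cxcl17, while propionate replicate 3 held 64.5 and 54.8 TPM. The same libraries stood at both ends for Wt1, at 0.65 and 336 TPM. All 7 mesothelial markers were found, and they summed to 12.3 to 1116 TPM in control (median 647), 23.6 to 913 in propionate (median 51.8), 11.6 to 391 in butyrate (median 106) and 16.6 to 646 in the combination (median 223). Without combination replicate 5, where Krt19 at 346 TPM made up most of a sum of 352 TPM, the combination median was 93.1. With the tissue covariates the log2 difference of Cx3cl1 in butyrate was -0.56 ± 0.33 (limma adjusted p = 0.319), and that of Cxcl17 in propionate was -0.64 ± 0.46 (adjusted p = 0.688). Without control replicate 3 the butyrate differences of Cx3cl1 and Cxcl17 were -2.79 and -3.05, and both passed (limma adjusted p = 0.0302 and 0.0411). In that fit the Cxcl17 difference in propionate was -3.23 (limma adjusted p = 0.113) and the Cx3cr1 difference in the combination was -1.62. With the tissue covariates the differences from control turned sign for 17 of the 41 tested members in propionate, 22 in butyrate and 6 in the combination. Among them were Ccl17, at 0.45 in propionate and 0.025 in butyrate, and Cx3cr1, at 0.12 in butyrate and 0.24 in the combination.

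**Figure D5:**
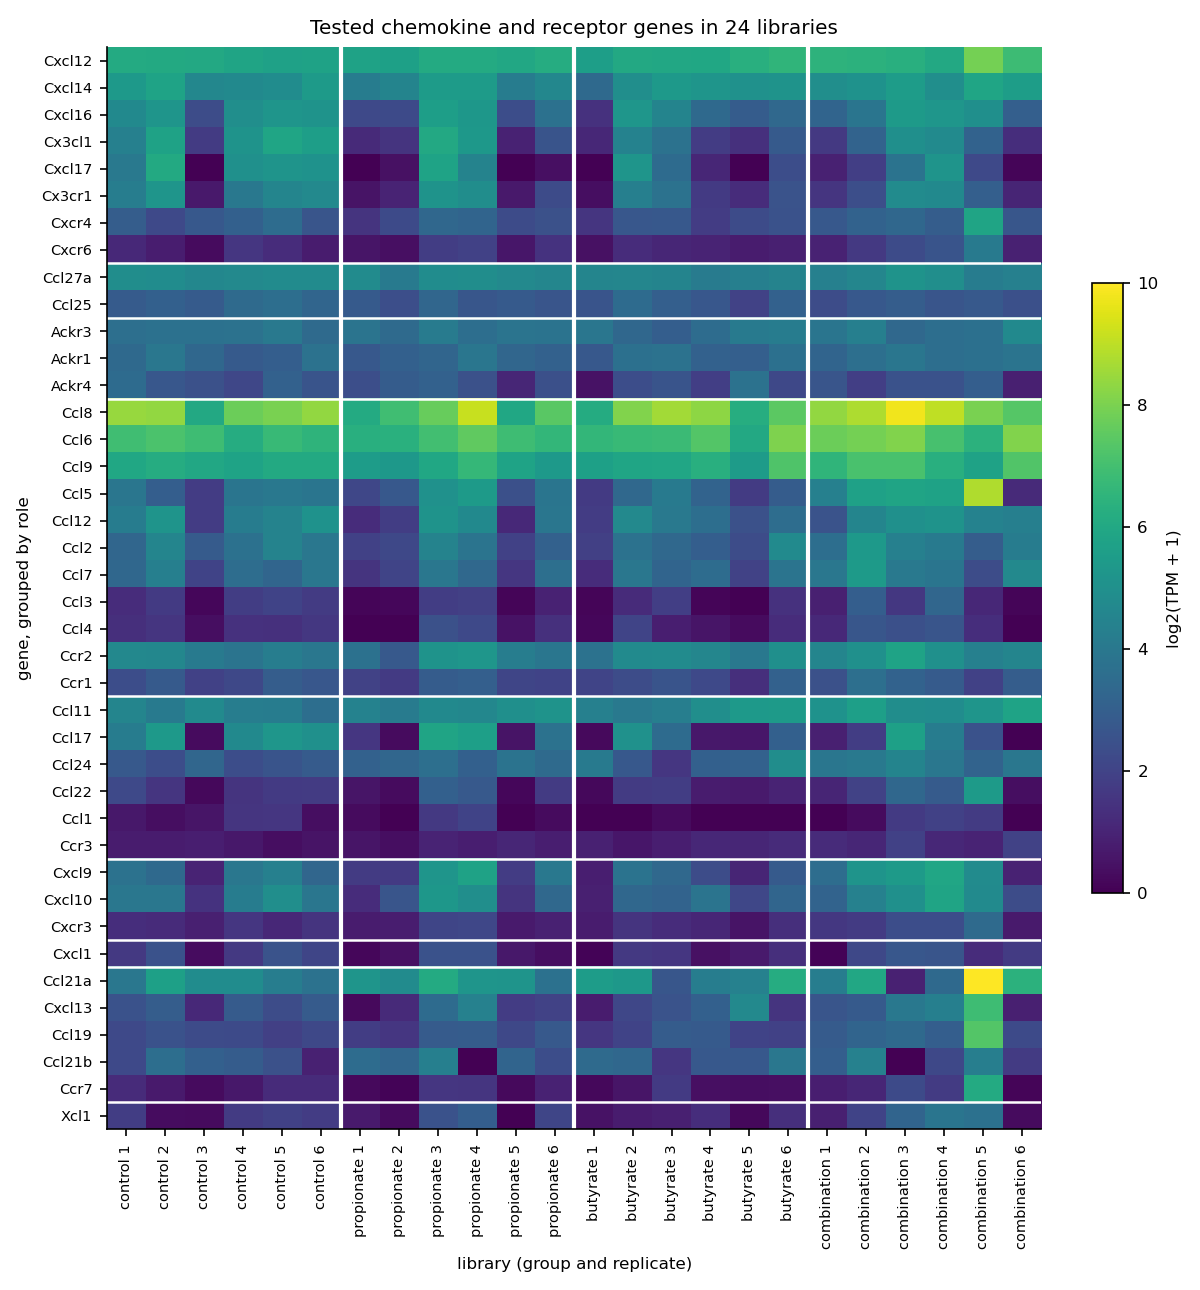
Log2(TPM + 1) (colour scale) of 40 of the 41 tested genes (rows, grouped by role) in the 24 libraries (columns, grouped by treatment). Cx3cl1, Cxcl17, Cx3cr1 and Ccl17 vary between dark and bright columns within the treated groups, while in control only replicate 3 is dark. Combination replicate 5 is bright for Ccl21a, Ccl19, Cxcl13, Ccr7 and Ccl5.

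The epithelial and gut group had 2 tested members. Ccl25, the thymic and gut ligand of Ccr9, was at 6.32, 8 and 11.2 TPM in control, 4.25, 5.78 and 8.89 in propionate, 2.94, 6.33 and 10.2 in butyrate and 3.97, 5.51 and 6.64 in the combination. It was the single member lower in the combination at an unadjusted p below 0.05 (log2 difference -0.55 ± 0.21, limma adjusted p = 0.37), and its means were also lower in propionate (-0.41 ± 0.21) and butyrate (-0.38 ± 0.21). Ccl27a, a skin ligand of Ccr10, was at 23.8, 27.3 and 28.7 TPM in control, 16.5, 26 and 28.8 in propionate, 16.7, 21.5 and 23.4 in butyrate and 17.3, 21.3 and 34.5 in the combination. All butyrate libraries lay below all controls (log2 difference -0.35 ± 0.16, limma adjusted p = 0.123), as did 1.82% of all genes. The butyrate signs of both genes depended on the scaling of TPM: after median-of-ratios scaling, which moved the median of all genes in butyrate from -0.38 to 0.01, Ccl27a was at 0.11 and Ccl25 at 0.02, and after quantile normalization at 0.13 and 0.11. Reads of Ccl27a and Ccl27b are also hard to tell apart, since a transcript of each differs at 3 of 425 bases in GENCODE M21. Ccl20, Ccl27b and Ccl28 did not exceed 0.54 TPM.

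The tested atypical receptors did not separate the groups. Ackr1, on venular endothelium and red cells, was at 6.13, 9.36 and 14.7 TPM in control, 5.75, 8.13 and 14 in propionate, 5.81, 9.72 and 12.5 in butyrate and 8.42, 11.7 and 14 in the combination. Ackr3, a scavenger of Cxcl12, was at 10.1, 12.3 and 15.4 TPM in control, 9.86, 13.1 and 16.8 in propionate, 6.98, 12.4 and 17.2 in butyrate and 9.44, 12.8 and 25.6 in the combination. Ackr4, a scavenger of Ccl19, Ccl21 and Ccl25, was at 3.36, 5.25 and 10.3 TPM in control, 1.1, 4.52 and 7.69 in propionate, 0.42, 3.83 and 12.7 in butyrate and 0.84, 4.74 and 6.95 in the combination. Their log2 differences in the combination were 0.27 ± 0.22, 0.20 ± 0.22 and -0.51 ± 0.43, and Ackr4 varied most, between 0.42 and 12.7 TPM within butyrate. Ackr2, a scavenger of inflammatory CC ligands, was below the filter, with 3.56 TPM in propionate replicate 6 as its highest value.

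Against each acid alone, the combination was higher for most members. Compared with propionate, 36 of 41 members had a higher mean (76.9% of all genes), with a median log2 difference of 0.69 (all genes 0.19). At an unadjusted p below 0.05 stood 12 members higher and none lower, against 8.43% of all genes higher and 0.429% lower. The smallest p-values belonged to Ccr3 (0.60 ± 0.18), Ccl9 (0.91 ± 0.28) and Cxcl12 (0.70 ± 0.22), each with a limma adjusted p of 0.507. They were followed by Ccl6, Ccl7, Ccl8, Ccl19, Ccl2, Cxcr3 and Cxcr6, with log2 differences from 0.77 for Ccl6 to 1.37 for Ccl7. Without combination replicate 5 those of Cxcl12, Ccl19, Cxcr3 and Cxcr6 were 0.45, 0.58, 0.51 and 0.55. Ccl9 was higher in the combination in 31 of 36 pairs of libraries. Ccr3 reached 1 TPM in 5 combination libraries, 3 butyrate libraries and 1 propionate library, so it passed the filter only with combination libraries.

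Compared with butyrate, 39 of 41 members had a higher mean (81.6% of all genes), with a median of 0.68 (all genes 0.30), and 13 were higher at an unadjusted p below 0.05, against 14.6% of all genes. The smallest p-values belonged here to Cxcr6 at 1.19 ± 0.41, Ccl5 at 2.44 ± 0.86, Cxcr3 at 0.96 ± 0.34 and Cxcr4 at 1.18 ± 0.42, each with a limma adjusted p of 0.317. Without combination replicate 5 these were 0.79, 1.73, 0.68 and 0.70. Cxcl12, Ccl19, Xcl1, Ccr3, Cxcl9 and Ccl1 completed the 10 members of smallest p, from 0.43 for Ccr3 to 1.95 for Cxcl9. Without that library Cxcl12 was at 0.34 and Ccl19 at 0.73. Ccl1 reached 1 TPM in 3 combination libraries and in no butyrate library, and Ccr3 in 5 and 3. Both passed the filter only with combination libraries.

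Butyrate and propionate, whose carbon chains differ in length, were compared directly. None of the 41 members reached even an unadjusted p below 0.05, against 0.165% of all genes higher and 0.541% lower in butyrate, and 16 of 41 had a higher mean in butyrate (29.7% of all genes). The smallest p-values were those of Ccl1 (-0.66 ± 0.39; 95% interval -1.48 to 0.15) and Ccl27a (-0.23 ± 0.16; -0.55 to 0.10), followed by Cxcl9, Ccl9, Xcl1, Ccr3, Ccl5, Ccr2, Ccl17 and Ccl22. The intervals were wide for variable genes, and that of Ccl5 was -2.56 to 1.00 and that of Ccl17 -3.17 to 1.67. Ccl1 reached 1 TPM in 2 propionate libraries and in no butyrate library.

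The interaction asks whether adding butyrate to propionate differs from adding butyrate to nothing, as (combination minus propionate) minus (butyrate minus control). It was above 0 for 38 of 41 members (83.7% of all genes), with a median of 1.06 (all genes 0.62). At an unadjusted p below 0.05 were 7 members above 0, against 34.8% of all genes. Those 7 were Ccl2 (1.82 ± 0.71), Cxcr4 (1.52 ± 0.60), Ccl7 (1.82 ± 0.79), Ccl8 (1.69 ± 0.78), Ccl9 (0.84 ± 0.40), Cxcl1 (1.49 ± 0.71) and Ccl12 (2.12 ± 1.01), with limma adjusted p-values from 0.128 to 0.138. Ccl3, Cxcr3 and Cxcl10 came next. The share of members at that level was thus smaller than the share of all genes, although their median was larger. After median-of-ratios scaling the median of the members was 0.78 and that of all genes 0.03, and with the tissue covariates they were 0.32 and 0.23.

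Downstream of the receptors lie inhibitory G proteins, receptor kinases, arrestins, Rac activators and integrin regulators, of which 38 were listed and 37 tested. None passed in any comparison. In the combination 27 of 37 were above control (median 0.25; 34.1% of all genes, median -0.12) and 6 were higher at an unadjusted p below 0.05 (6.2% of all genes), led by Gnai1, an inhibitory G protein subunit (1.24 ± 0.38, limma adjusted p = 0.267), and Tiam1, a Rac activator (0.53 ± 0.17, adjusted p = 0.292). Gnai1 was at 6.60 ± 1.60 TPM (SD, n = 6) in control and 23.1 ± 23.0 TPM in the combination, where replicate 5 held 65.6 TPM, replicate 2 held 33.5 TPM and the others 6.73 to 12.1 TPM. Without replicate 5 its log2 difference was 0.86. In butyrate 6 of 37 were above control (21.2% of all genes) and the rest below (median -0.43, all genes -0.38), 6 of them at an unadjusted p below 0.05 (35.1% of all genes), with Tln1, the integrin activator talin, at -0.77 ± 0.29 and Rac1 at -0.50 ± 0.20 (limma adjusted p = 0.115 for both). In propionate 5 of 37 were above control (20.7% of all genes; median -0.33, all genes -0.30). Against propionate and against butyrate all 37 had a higher mean in the combination (76.9% and 81.6% of all genes), with medians of 0.61 and 0.70. All counts of this list for the combination include replicate 5, which held the highest level of many of its genes. Among them were Rac2 at 113 TPM (at most 27.2 elsewhere), Dock2 at 47.1 (12.5) and Was at 43.8 (12.9). Other libraries were higher for Gnai3, Gnb1 and Rac1.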

How the data were processed

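Per the labels' protocols, TRIzol was used for RNA extraction and libraries were stranded and poly(A)-selected. The submitters' processing notes name fastp, HISAT2, StringTie and the build mm39. For the tool versions, settings and annotation, the sources used here say nothing. A table of TPM per transcript was deposited by the authors for 24 libraries (149132 transcripts, 1001 without a gene name, which were left out). Each TPM column sums to a fixed total and keeps no depth, so depth is unknown and no counting interval is given.

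TPM was summed by gene name and analysed as log2(TPM + 1), which understates fold changes of low genes. The 15163 genes that reached 1 TPM in 6 or more libraries were fitted with limma 3.58.1 in R 4.3.3, with trend and robust moderation, all 24 libraries and no covariates. P-values are two-sided with Benjamini-Hochberg adjustment. The script was tested on simulated independent genes. Recovery of changed genes was required only at a spread smaller than that of these data, so the test does not show what the fit can detect here. Named are, for each comparison, the members of smallest p up to 10, with the tested members described by role. 1 tested member is counted in all totals and is not reported here by name or drawn. The members, gene lists and marker lists were chosen with earlier results of these data known. Promoter windows are from RefSeq (GRCm38.p6), a build other than that of the files, and were matched by symbol. Other settings varied the pseudocount, the filter, scaling, moderation, weights, covariates, blocks, the groups fitted and each library left out in turn.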

Additional observations from a re-analysis of the deposited data

Results flagged for a closer look

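For each reported member in each group of 6 libraries, the highest or lowest library was compared with the rest on the log2(TPM + 1) scale, as its gap to the nearest library over the range of the group (Dixon's criterion at its 95% critical value). Of 176 groups of values examined 28 exceeded it, where chance flags about 1 in 20. The values below are TPM.

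Control replicate 3 gave 12 of the 28, all low. They were Ccl12 at 2.39 (other controls at least 17.3), Ccl17 at 0.24 (17.3), Ccl22 at 0.15 (1.85), Ccl4 at 0.3 (1.57) and Ccl8 at 64.6 (215). Cx3cl1 at 2.31 (19.4), Cx3cr1 at 0.6 (14.9), Cxcl10 at 1.75 (14.1), Cxcl13 at 1.21 (4.05), Cxcl16 at 4.05 (26.1), Cxcl17 at 0 (15.5) and Cxcl9 at 0.98 (8.84) made up the rest. This is the control library with 0.65 TPM of Wt1.

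Combination replicate 5 gave 6, all high. Ccl19 stood at 160.1 (other combination libraries at most 9.72), Ccr6 at 27.8 (0.59), Ccr7 at 67.6 (3.72), Ccr9 at 6.52 (0.52), Cxcr4 at 56.1 (9.04) and Cxcr5 at 35.6 (0.89). Combination replicate 2 gave 3, Cxcl2 at 10.97 (0.61), Cxcl3 at 3.24 (0 in the others) and Cxcl5 at 6.71 (1.09).

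The remaining 7 were spread over other libraries. High values were Ackr2 at 3.56 in propionate replicate 6, Ccl21d at 21.4 in propionate replicate 4 and at 24.6 in combination replicate 6, and Ccr7 at 2.21 in butyrate replicate 3. Low values were Ackr4 at 1.1 in propionate replicate 5, Ccl12 at 4.82 in combination replicate 1 and Cxcl14 at 9.61 in butyrate replicate 1.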

How the results depend on the processing

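The absence of called members depended on the model. With weights estimated per library (from 0.126 for combination replicate 5 and 0.127 for propionate replicate 3 to 6.76 for propionate replicate 5), limma called 26 members in propionate, 19 in butyrate, 14 in the combination, 26 for the combination against propionate, 3 against butyrate and 26 in the interaction, among 11434, 10256, 5786, 5026, 572 and 10982 of 15163 genes. A replicate block by the number in the library name called 13 members in butyrate and 6 in the interaction, among 7903 and 5426 genes, and one by the number in the title called no member. The labels give the numbers no shared source. Deviations of same-numbered libraries from their group means correlated between -0.87 and 0.74 for title numbers. For library numbers every pair of numbers 1 to 5 was positive (0.015 to 0.70), and pairs of numbers 6 to 8 ran from -0.39 to 0.63. Among libraries of the other groups, 3 of 24 libraries correlated best with one of their own title number and 2 with one of their own library number. With the muscle and mesothelium scores as covariates 2 members were called in the combination, among 138 genes, in a fit that kept combination replicate 5, the library set apart by its muscle score. Leaving out each library gave 0 to 2 called members in butyrate. The 2 were Cx3cl1 and Cxcl17, called without control replicate 3. In the interaction it gave 0 to 5 (5 without propionate replicate 3), and in the other comparisons 0. The counts over all genes in these fits are not given here, so the member counts cannot be set against that share. The cause of these differences was not tested.

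The median of the members in the combination was 0.26 to 0.67 with each library left out. With the tissue covariates the medians were 0.092 in propionate (from -0.20), 0.14 in butyrate (from -0.38) and 0.32 in the interaction (from 1.06). With quantile normalization that in propionate was 0.074, and the median of butyrate against propionate was -0.20 to 0.11 with each library left out. The all-gene median was 0.01 in propionate and butyrate after median-of-ratios scaling, from -0.30 and -0.38, and -0.02 in the combination. Among the 10 members of smallest p in each comparison those that changed sign were, in butyrate, Ccl27a (0.11) and Ccl25 (0.025) after median-of-ratios scaling, Ccl27a (0.13) and Ccl25 (0.11) after quantile normalization, and Ccl17 (0.025) and Cx3cr1 (0.12) with the tissue covariates, as well as Cxcl1 in propionate (0.015) with the same covariates. For butyrate against propionate with library weights these were Cxcl9 (0.024), Xcl1 (0.46), Ccl5 (0.17), Ccl17 (0.15) and Ccl22 (0.32). TPM without counts leaves the counting error of low members such as Ccr3 and Ccl1 unknown.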

Other observations

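Other cell type markers that moved with the libraries are given as summed TPM, lowest to highest in each group. The 7 adipocyte markers, which include Adipoq and Plin1, were at 668 to 2008 in control, 1019 to 2386 in propionate, 834 to 3500 in butyrate and 1072 to 18668 in the combination (1072 to 7180 without combination replicate 5). The 6 endothelial markers were at 115 to 179, 107 to 159, 109 to 211 and 127 to 304. The 7 dendritic cell markers were at 27.4 to 52.3, 15.3 to 72.8, 17.8 to 47.2 and 28.5 to 166. The 7 fibroblast markers were at 1743 to 2621, 1553 to 2651, 1393 to 2810 and 1762 to 2849. The 8 epithelial keratin and junction markers were at 1.4 to 536, 3.3 to 450.4, 1.1 to 209 and 6.02 to 476, with control replicate 3 at the low end of control. Outside combination replicate 5, the 6 markers of high endothelium and lymph node stroma were at most 177 TPM in any library.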
